A study of Homo sapiens with 12 samples.

Results

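SOX10 and 9 other transcription factor genes of the neural crest and the melanocyte lineage, SOX9, SOX4, SOX5, PAX3, MITF, TFAP2A, FOXD3, ETS1 and MSX1, were followed in A375 cells carrying different forms of YAP. The genes were selected by symbol in the deposited table of 31585 distinct loci, and where a symbol had several loci the one with the highest mean over the 12 libraries was to be taken. Each of the 10 genes had 1 locus, so no measured value decided which locus was read. The set was proposed with earlier results of these data known, and SOX10 had been singled out after its values in the YAP-2SA cells were seen. Its values in comparisons with YAP-2SA are therefore given as a description, without a test.

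A375 is a hypotriploid human line from a malignant melanoma. All cells had been transduced with a retrovirus carrying hygromycin resistance and selected as a stable line, and the vector was empty (Control) or encoded a mutant of human YAP, the co-activator that binds DNA through TEAD factors. RNA was sequenced from 3 cultures of each of the 4 lines, so the replicates of a group come from 1 transduced line and p-values measure the spread between cultures only. The comparisons ask which expression changes follow active YAP and, for those seen with YAP-S127A, which need TEAD binding.

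YAP-S127A lacks the serine through which LATS kinases hold YAP in the cytoplasm. YAP-2SA carries S127A together with S381A, which removes a site that primes YAP for degradation. YAP-S94A,S127A carries S127A together with S94A, which prevents binding to TEAD. By the titles, no line carried S94A together with S381A. Whether changes found only in YAP-2SA need TEAD binding was therefore not tested. The condition field of the 3 YAP-2SA records also lists S94A, whereas their titles do not, and the titles were followed here. The records give 24 h of culture on plastic, and the study's methods give a longer time.

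Expression is given as FPKM, fragments scaled to transcript length and to the mapped total of the library, so that levels of different genes can be set side by side. Tests were made with limma on the deposited log2(FPKM + 1) values, over the 15055 loci that reached 1 FPKM in 3 or more libraries, and a gene was called at a Benjamini-Hochberg adjusted p under 0.05. All 10 genes passed this filter. The scale of every log2 fold change is log2(FPKM + 1), which makes changes between low values look smaller, and ratios of mean FPKM are given without the added 1. Read depth was not recovered from the table, and between 20161 and 20656 loci were above 0 in each library.

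YAP1, the gene the vectors encode, was between 130 and 187 FPKM in the 9 libraries with a YAP vector. It was 34.1 and 33.0 FPKM in Control replicates 1 and 2, but 172 FPKM in the library labelled Control replicate 3. That library therefore goes against its label for YAP1, and comparisons with Control were made with and without it. Leaving it out changed the call of none of the 10 genes, and moved no log2 fold change of theirs by more than 0.19. Of the 10 melanoma markers checked, SOX10, MITF, S100B and S100A1 were above the filter. So was the locus that holds MIA together with EGLN2 and RAB4B. Passing the filter did not mean an even level. In YAP-2SA against Control 1 of these 5 (MITF) was called higher and 4 were lower, SOX10 among them as a description. Backgrounds over all loci were 22.9% called higher and 19.5% called lower. S100A1 was at a mean of 101 FPKM in Control, 46.3 in YAP-S127A and 2.91 in YAP-2SA. MLANA, PMEL, TYR, DCT and TYRP1 were below 1 FPKM in all 12 libraries.

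The neural crest is a transient embryonic cell population that gives rise to melanocytes, peripheral glia, sensory neurons and parts of the facial skeleton. TFAP2A, MSX1 and PAX3 act early at the neural plate border, FOXD3, ETS1 and the SOXE factors SOX9 and SOX10 specify the crest cells, and SOX10 with PAX3 activates MITF, the regulator of melanocyte differentiation. SOX10 marks the glial and melanocytic branches, and SOX9 the skeletogenic branch. In melanoma, SOX10 and MITF are known for the melanocytic states, and a low SOX10 with a high SOX9 for an undifferentiated state.

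Of the 9 genes other than SOX10, 5 were called higher and 3 lower in YAP-2SA than in Control, and these 8 differed by more than 2-fold in mean FPKM. Over all loci, 22.9% were called higher and 19.5% lower in this comparison. SOX5, SOX4 and FOXD3 were called lower, SOX9, ETS1, TFAP2A, MITF and MSX1 were called higher, and PAX3 was not called. SOX10, which was not tested here, was also at a lower level. The median absolute log2 fold change was 1.85 over the 9 genes and 0.256 over all loci tested. The same split was found for YAP-2SA against YAP-S127A, with 5 of the 9 higher against a background of 18.3% and 3 lower against 14.5%, and for YAP-2SA against YAP-S94A,S127A, with 5 higher against 23.2% and 3 lower against 20.3%. These comparisons share the YAP-2SA libraries, and in the last the vectors differ at both S94 and S381. Of all loci tested, the YAP-2SA libraries did not overlap those of Control in 52.8%, YAP-S127A in 43.6% and YAP-S94A,S127A in 56.1%.

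**Figure D1:**
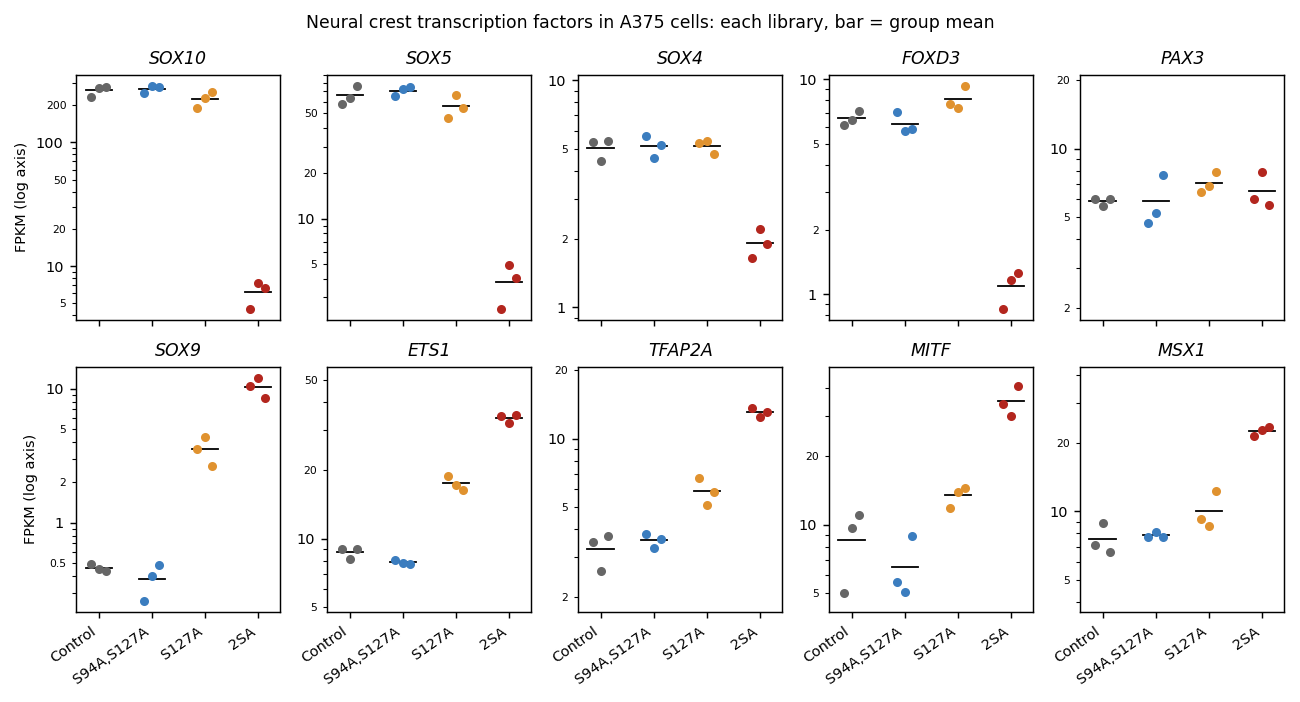
FPKM of each of the 10 genes (log axis, own range per panel) in every library by group, with a bar at the group mean of 3 libraries. The upper row holds SOX10, SOX5, SOX4 and FOXD3, whose YAP-2SA libraries all lie below the other 9, and PAX3, whose YAP-2SA libraries overlap every other group. The lower row holds SOX9, ETS1, TFAP2A, MITF and MSX1, whose YAP-2SA libraries lie above the other 9. Of all loci tested, 52.8% did not overlap between YAP-2SA and Control, 43.6% between YAP-2SA and YAP-S127A, and 56.1% between YAP-2SA and YAP-S94A,S127A.

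SOX10, at chr22:38366693-38383429 on the minus strand of GRCh37, encodes the SOXE factor that maintains glial and melanocytic identity. Its level was 234, 274 and 281 FPKM in Control, 188, 230 and 255 in YAP-S127A, and 250, 287 and 278 in YAP-S94A,S127A. In YAP-2SA it was 4.53, 7.25 and 6.69 FPKM. The YAP-2SA libraries lay far below the other 9, which overlapped one another between groups. The mean fell from 263 ± 25.6 FPKM (SD, n = 3) in Control to 6.16 ± 1.44 in YAP-2SA, a 42.7-fold lower level and a log2 fold change of -5.22 (SE 0.15). Only 10 of the 15055 loci had a lower log2 fold change. SOX10 stood above 97.4% of the tested loci in Control and above 40.1% in YAP-2SA.

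In YAP-S127A, which is active but keeps S381, SOX10 was not called. The log2 fold change against Control was -0.24 (95% interval -0.58 to 0.11, adjusted p = 0.456), and against YAP-S94A,S127A it was -0.28 (-0.63 to 0.06, adjusted p = 0.293). YAP-S94A,S127A differed from Control by 0.05 (-0.29 to 0.39, adjusted p = 1.0). These intervals do not reach a change of 1 on the log2 scale, whereas YAP-2SA was at 36.4-fold lower mean FPKM than YAP-S127A. The gene POLR2F, which encodes an RNA polymerase subunit, overlaps SOX10 on the opposite strand, and the counting was not stated to use strand. POLR2F was at a mean of 65.6 FPKM in Control and 43.5 in YAP-2SA.

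SOX9, at chr17:70117161-70122557 on the plus strand, encodes the SOXE factor of the skeletogenic and stem-like crest states. It was 0.495, 0.453 and 0.439 FPKM in Control and 0.261, 0.401 and 0.483 in YAP-S94A,S127A. In YAP-S127A it was 3.55, 4.36 and 2.66 FPKM, and in YAP-2SA 10.4, 12 and 8.57. The groups formed 3 levels without overlap, with Control and YAP-S94A,S127A together at the lowest. SOX9 rose by 2.94 (SE 0.15) on the log2 scale in YAP-2SA against Control, with adjusted p = 6.6e-08, and by 1.61 (SE 0.15) in YAP-S127A, with adjusted p = 8.9e-05. YAP-2SA was also above YAP-S127A, by 1.33 (SE 0.15, adjusted p = 5.6e-05).

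YAP-S127A exceeded YAP-S94A,S127A by 1.70 (SE 0.15, adjusted p = 4.9e-05) for SOX9, a 9.22-fold difference in mean FPKM. YAP-S94A,S127A against Control gave -0.08 (95% interval -0.41 to 0.24, adjusted p = 1.0). SOX9 reached 1 FPKM only in the 6 libraries of YAP-S127A and YAP-2SA, so it passed the filter through the groups where it was high, and without the filter these 4 calls and their fold changes were kept, with adjusted p of at most 0.00025. The ratio of SOX10 to SOX9 FPKM within a library was between 472 and 641 in Control, 576 and 957 in YAP-S94A,S127A, 52.9 and 95.9 in YAP-S127A, and 0.433 and 0.781 in YAP-2SA. SOX9 thus exceeded SOX10 in the 3 YAP-2SA libraries and in none of the other 9.

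SOX5 (chr12:23682438-24715478) and SOX4 (chr6:21593982-21598850) are SOX factors outside the SOXE group, a SOXD factor that modulates SOXE activity and a SOXC factor of progenitor cells. SOX5 was 58.2, 63.2 and 76.5 FPKM in Control, 46.6, 66.3 and 54.4 in YAP-S127A, and 65.4, 72.3 and 75.0 in YAP-S94A,S127A, against 2.53, 4.91 and 4.04 in YAP-2SA. It fell by 3.82 (SE 0.19) on the log2 scale in YAP-2SA against Control, 17.2-fold in mean FPKM, with adjusted p = 5.4e-08. In YAP-S127A the change was -0.24 (95% interval -0.66 to 0.17, adjusted p = 0.528). The YAP-2SA libraries did not overlap the others, and the other groups overlapped.

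SOX4 was between 4.42 and 5.67 FPKM in the 9 libraries of Control, YAP-S127A and YAP-S94A,S127A, and at 1.65, 2.22 and 1.91 FPKM in YAP-2SA. It fell by 1.05 (SE 0.10) against Control, 2.62-fold in mean FPKM, with adjusted p = 1.5e-05. For YAP-S127A against Control the log2 fold change was 0.03 (95% interval -0.21 to 0.26, adjusted p = 0.933). FOXD3 (chr1:63788238-63790799), a forkhead factor that marks early crest cells and restrains melanocyte fate, was 6.15, 6.48 and 7.15 FPKM in Control and 0.860, 1.17 and 1.26 in YAP-2SA. It fell by 1.86 (SE 0.11), 6-fold in mean FPKM, with adjusted p = 3.1e-07.

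In YAP-S127A, FOXD3 was at 7.66, 7.33 and 9.35 FPKM, all above the Control libraries. Its log2 fold change against Control was 0.26 (SE 0.11, adjusted p = 0.238). In YAP-S94A,S127A it was 7.03, 5.74 and 5.87 FPKM, below every YAP-S127A library. YAP-S127A differed from YAP-S94A,S127A by 0.34 (95% interval 0.08 to 0.59, adjusted p = 0.0896). Over all loci, 21.3% did not overlap between YAP-S127A and Control, and 29.4% between YAP-S127A and YAP-S94A,S127A. SOX10, SOX5, SOX4 and FOXD3 thus shared a lower level in YAP-2SA than in each other group, with no call in the 3 comparisons among those groups. In bulk RNA, fewer cells that express a gene and less of its RNA in each cell cannot be told apart.

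ETS1 (chr11:128328656-128457453), an ETS factor that works beside SOX10 in the cranial crest, had the smallest spread of the genes that rose. It was 9.01, 8.15 and 9.05 FPKM in Control, 8.03, 7.85 and 7.74 in YAP-S94A,S127A, 18.9, 17.3 and 16.4 in YAP-S127A and 34.6, 32.2 and 35.2 in YAP-2SA. The levels of YAP-S127A and YAP-2SA stood apart from each other and from the lower groups. ETS1 rose by 1.85 (SE 0.07, adjusted p = 5e-09) in YAP-2SA and by 0.93 (SE 0.07, adjusted p = 1.5e-05) in YAP-S127A against Control, and YAP-2SA exceeded YAP-S127A by 0.92 (SE 0.07, adjusted p = 2e-06). YAP-S127A exceeded YAP-S94A,S127A by 1.06 (SE 0.07, adjusted p = 5e-06). YAP-S94A,S127A lay below Control in every library, with a log2 fold change of -0.13 (SE 0.07, adjusted p = 1.0), in a comparison where 8.67% of all loci did not overlap.

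TFAP2A (chr6:10393419-10419892), an AP-2 factor of the neural plate border that also acts with MITF in melanocytes, followed the same order. It was 3.50, 2.61 and 3.74 FPKM in Control, 3.82, 3.31 and 3.62 in YAP-S94A,S127A, 6.71, 5.09 and 5.81 in YAP-S127A and 13.7, 12.4 and 13.1 in YAP-2SA. Only Control and YAP-S94A,S127A overlapped. TFAP2A rose by 1.72 (SE 0.12, adjusted p = 6.4e-07) in YAP-2SA and by 0.69 (SE 0.12, adjusted p = 0.00506) in YAP-S127A against Control, and YAP-S127A exceeded YAP-S94A,S127A by 0.58 (SE 0.12, adjusted p = 0.00969). With just these 6 libraries fitted, YAP-S127A against Control had adjusted p = 0.0718.

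MITF (chr3:69788607-70017487) was the most variable between replicates. It was 5.01, 9.73 and 11 FPKM in Control, 5.59, 5.05 and 8.90 in YAP-S94A,S127A, 11.9, 13.9 and 14.6 in YAP-S127A and 33.9, 30.1 and 41.0 in YAP-2SA. YAP-S127A lay above Control and YAP-S94A,S127A in every library, and YAP-2SA lay above all others. MITF rose by 1.96 (SE 0.26, adjusted p = 0.00013) in YAP-2SA, 4.08-fold in mean FPKM, and had a log2 fold change of 0.65 (SE 0.26, adjusted p = 0.195) in YAP-S127A against Control. GENCODE gives MITF 15 protein-coding transcript starts, and the value of the locus does not separate its isoforms.

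YAP-S127A exceeded YAP-S94A,S127A by 0.97 (SE 0.26, adjusted p = 0.0382) for MITF, a call that depended on the setting. Adjusted p was 0.0608 without the FPKM filter. It was 0.0644, 0.0883 and 0.107 without YAP-S127A replicates 1, 2 and 3, 0.119 and 0.117 without YAP-S94A,S127A replicates 1 and 2, and 0.0549 without YAP-2SA replicate 1, a library that enters only through the shared spread.

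The bases around a TEAD core motif in the promoters of 2 members are printed to show what was found, as the vectors differ in TEAD binding. Promoter sequence for 7 of the 10 genes came from RefSeq (GRCh38), 250 bases before the start, and windows of 30 bases were placed on GRCh37 by exact match. The motif CATTCC, or GGAATG on the other strand, is the TEAD core, and 11.9% of all 35116 promoters hold it. FOXD3, PAX3, MITF, MSX1, TFAP2A, SOX4 and SOX5 had 10 promoters, of which 2 (20.0%) held it. They were the promoter of SOX4 and 1 of the 3 of MITF, in MITF 104 bases before the start at chr3:69788499-69788528 and in SOX4 178 bases before it at chr6:21593792-21593821, with the motif in capitals.
MITF: ccaggcgagctgGGAATGccccgcccgggc
SOX4: gctctgtaaattGGAATGaggtcagatttg
MITF, described above, rose in YAP-2SA and SOX4 fell. A match is a description of the letters and no evidence of binding, and the other promoters' lack of it says only that the letters are not in this window.

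MSX1 (chr4:4861392-4865663), a homeobox factor of the neural plate border, was 7.14, 8.93 and 6.66 FPKM in Control, 9.27, 8.59 and 12.3 in YAP-S127A, 7.70, 8.14 and 7.71 in YAP-S94A,S127A and 21.5, 22.8 and 23.5 in YAP-2SA. It rose by 1.47 (SE 0.12, adjusted p = 4.2e-06) in YAP-2SA against Control. In YAP-S127A its log2 fold change against Control was 0.36 (95% interval 0.08 to 0.64, adjusted p = 0.133), with overlap between the groups. Against YAP-S94A,S127A it was 0.31 (95% interval 0.03 to 0.58, adjusted p = 0.156), without overlap, as in 29.4% of all loci. PAX3 (chr2:223064606-223163717), the paired-box activator of MITF, was 6.02, 5.62 and 6.02 FPKM in Control, 6.45, 6.86 and 7.93 in YAP-S127A, 4.74, 5.22 and 7.66 in YAP-S94A,S127A and 6.01, 7.88 and 5.65 in YAP-2SA. The YAP-S127A libraries lay above those of Control, with a log2 fold change of 0.23 (95% interval -0.12 to 0.57, adjusted p = 0.474). The log2 fold change in YAP-2SA against Control was 0.11 (95% interval -0.23 to 0.46, adjusted p = 0.591), and it was called in none of the 6 comparisons, with the 12 libraries between 4.74 and 7.93 FPKM.

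**Figure D2:**
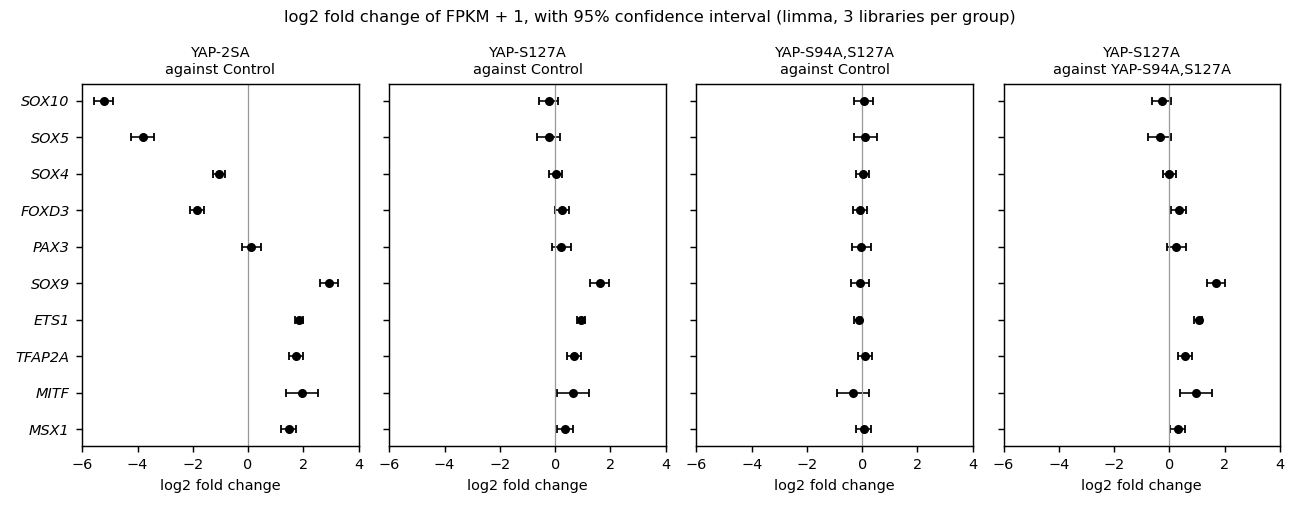
Log2 fold change of FPKM + 1 of the 10 genes in 4 comparisons, with 95% confidence intervals from limma and 3 libraries per group. In YAP-2SA against Control 4 genes lie well below 0 and 5 well above, in YAP-S94A,S127A against Control all intervals include 0, and in the remaining panels SOX9, ETS1, TFAP2A and MITF have the largest values. SOX10 is shown as a description where YAP-2SA takes part.

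Across the 10 genes, YAP-S127A against Control gave 3 called higher (SOX9, TFAP2A and ETS1) and 0 called lower, with backgrounds of 4.56% and 1.75%. At an unadjusted p under 0.05 there were 6, and 19.6% of all loci. YAP-S127A against YAP-S94A,S127A, where the vectors differ by S94A and which shares no library with YAP-2SA against Control but the estimate of spread, gave 4 higher (SOX9, MITF, TFAP2A and ETS1) and 0 lower, with backgrounds of 6.36% and 4.31%. For YAP-S94A,S127A against Control limma called 0 of the 10, and 0 were under an unadjusted p of 0.05, where 4.39% of all loci were, with backgrounds of 0.0864% higher and 0.0930% lower.

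**Figure D3:**
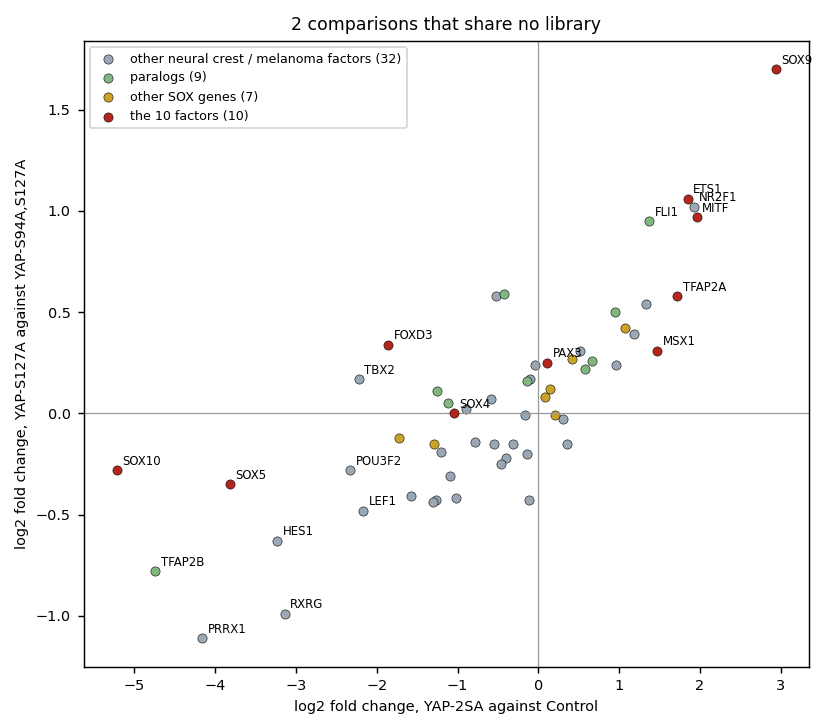
Log2 fold change in YAP-2SA against Control (horizontal axis) and in YAP-S127A against YAP-S94A,S127A (vertical axis), for the 10 genes (red) and the tested genes of 3 other transcription factor lists. SOX9, ETS1, MITF and TFAP2A lie toward the upper right, and SOX10 and SOX5 lie far to the left at small vertical values of -0.28 and -0.35.

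Paralogs of the 10 genes were compared next, from lists taken from general knowledge of these families. Of 15 other SOX genes 7 were tested, and in YAP-2SA against Control 2 rose (SOX12 and SOX18) and 2 fell (SOX2 and SOX11). Backgrounds over all loci were 22.9% called higher and 19.5% called lower. SOX2, a factor of stem cells and of the early glial lineage, fell by 1.72 on the log2 scale (SE 0.10, adjusted p = 2.3e-07), from 8.11 to 1.76 FPKM. SOX11, a SOXC factor like SOX4, fell by 1.29 (SE 0.14, adjusted p = 3.2e-05). SOX18, known from endothelium, rose by 1.07 (SE 0.15, adjusted p = 0.00015), and SOX12, the third SOXC factor, by 0.42 (SE 0.07, adjusted p = 0.0006). SOX8, the third SOXE gene, was below the filter, at 0.574 FPKM in Control and 0.0211 in YAP-2SA. The SOXC genes thus did not move together, with SOX4 and SOX11 lower and SOX12 higher. The median log2 fold change of the 7 genes was 0.15, against 0.008 over all loci. It includes 2 loci that also hold another gene, SOX7 with PINX1 and SOX15 with FXR2. Their values cannot be assigned to the SOX genes.

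Among 15 paralogs of the remaining genes 9 were tested, and 4 rose and 3 fell in YAP-2SA against Control, with backgrounds of 22.9% and 19.5%. The median log2 fold change of the 9 was -0.14. With a filter of FPKM of at least 5, which tests fewer genes, 2 were called higher and 2 lower. TFAP2B, an AP-2 factor of crest derivatives, fell by 4.74 (SE 0.18, adjusted p = 7.4e-09), from 34.9 to 0.313 FPKM, and TFAP2C, known from trophoblast and mammary cells, fell by 1.26 (SE 0.13, adjusted p = 1.7e-05), from 83.6 to 34.5 FPKM. TFAP2A moved the other way, so that its share of the summed FPKM of TFAP2A, TFAP2B and TFAP2C was between 2.11% and 3.02% in the Control libraries, between 4.31% and 6.52% in YAP-S127A and between 25.6% and 28.3% in YAP-2SA. The sum itself was lower in YAP-2SA, between 43.7 and 53.4 FPKM, than in Control, between 116 and 126.

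FLI1, the ETS factor beside ETS1 in the crest and in blood, rose by 1.37 (SE 0.18, adjusted p = 0.00011) in YAP-2SA against Control. It also exceeded YAP-S94A,S127A in YAP-S127A, by 0.95 (SE 0.18, adjusted p = 0.00714). FOXD2 fell with FOXD3, by 1.12 (SE 0.10, adjusted p = 5e-06). The other genes that rose, named after their values were seen, were TFE3, the MITF relative that controls lysosomal genes, by 0.95 (adjusted p = 0.00018), MSX2 by 0.66 (adjusted p = 0.00028) and FOXD1 by 0.58 (adjusted p = 0.00437). FOXD1 and FOXD3 thus differed in direction, while MSX1 and MSX2, ETS1 and FLI1, and MITF and TFE3 were each higher in YAP-2SA.

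**Figure D4:**
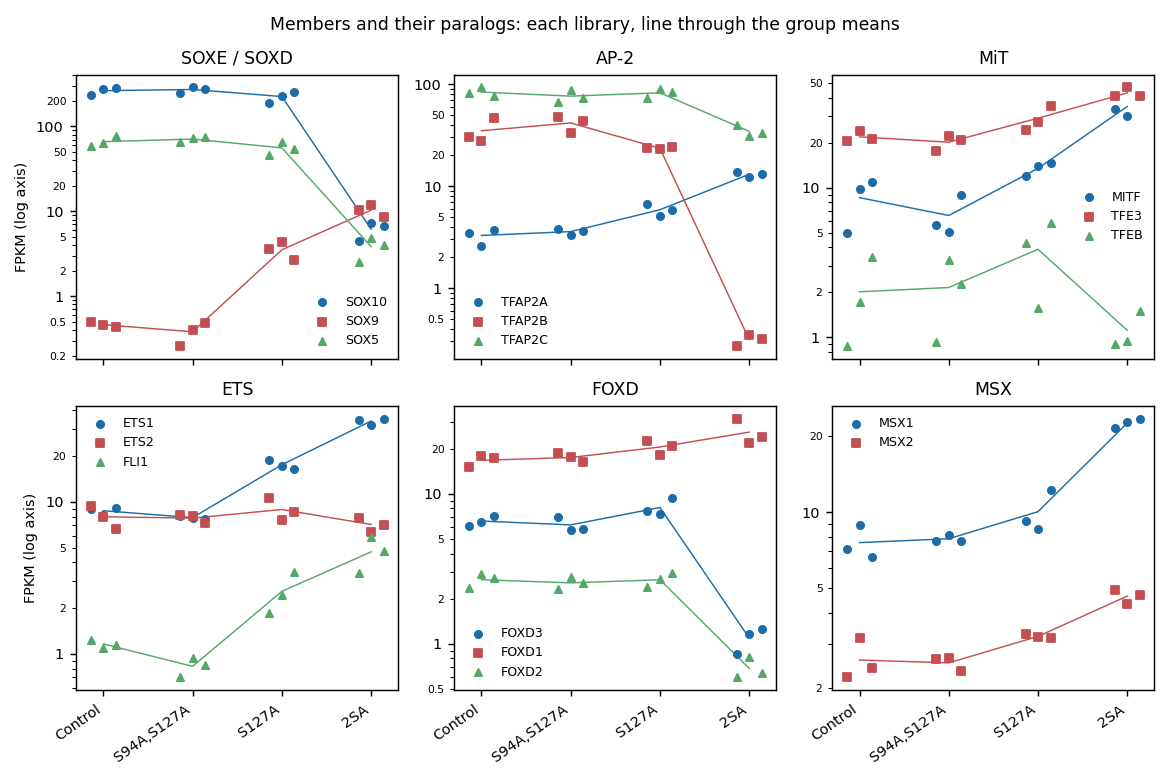
FPKM (log axis) of members and paralogs in every library by group, with a line through the group means of 3 libraries. SOX9 and SOX10 cross between YAP-S127A and YAP-2SA, TFAP2B falls to a mean of 0.313 FPKM in YAP-2SA while TFAP2A is highest there, and TFEB varies between replicates more than the others.

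A wider list of 39 transcription factors of the neural crest and of melanoma states held 32 tested genes, of which 6 rose and 19 fell in YAP-2SA against Control. Backgrounds were 22.9% higher and 19.5% lower, and 2 of the 32 were read from loci with several symbols. The median log2 fold change of the 32 was -0.54, against 0.008 over all loci. The largest changes were those of PRRX1, a mesenchymal crest homeobox factor, which fell by 4.16 (SE 0.14, adjusted p = 3.9e-09), HES1, a Notch target, which fell by 3.23 (SE 0.22, adjusted p = 7.2e-07), RXRG, a retinoid receptor of crest-like melanoma cells, which fell by 3.14 (SE 0.14, adjusted p = 3.4e-08), and POU3F2, an invasive-state factor, which fell by 2.33 (SE 0.07, adjusted p = 1.5e-09). PRRX1 fell from 26.3 to 0.513 FPKM and RXRG from 8.60 to 0.0870. NR2F1, an orphan receptor, had the largest rise, 1.92 (SE 0.15, adjusted p = 2.8e-06), and is named after its value was seen.

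In YAP-S127A against YAP-S94A,S127A, 3 genes of this list rose and 5 fell, with PRRX1 lower by 2.24-fold and RXRG by 2.20-fold in mean FPKM. Backgrounds over all loci were 6.36% called higher and 4.31% called lower. The count of 8 was 4 without YAP-S127A replicate 1 or without YAP-S94A,S127A replicate 1 or 2, and 5 without YAP-S127A replicate 2 or YAP-S94A,S127A replicate 3. PRRX1 had adjusted p = 0.0007 and RXRG adjusted p = 0.00162 with all libraries.

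Genes that SOX10 and MITF are known to activate formed a list of 34, of which 21 were tested, and 7 rose and 10 fell in YAP-2SA against Control. Backgrounds over all loci were 22.9% called higher and 19.5% called lower. Of the 21, 3 (MC1R, MIA and CAPN3) were read from loci that also hold other genes, so their values cannot be assigned to the listed gene. Among the largest changes were those of S100B, ERBB3 and GJB1, which are known from glial cells and fell. S100B, a calcium-binding protein of glia and melanocytes, fell by 4.73 (SE 0.13, adjusted p = 1.1e-09), from 46.9 to 0.807 FPKM. ERBB3, the neuregulin receptor, fell by 4.10 (SE 0.15, adjusted p = 6.3e-09), from 115 to 5.89 FPKM. GJB1, a connexin of Schwann cells, fell by 3.72 (SE 0.17, adjusted p = 3.1e-08). CDH19, NES, EDNRB and RAB38 also fell, by between 0.90 (RAB38) and 3.43 (NES).

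The genes that rose were named after their values were seen. GPNMB, a melanosomal glycoprotein and MITF target, rose by 1.68 (SE 0.08, adjusted p = 3.4e-08), SLC24A5, a melanosomal exchanger, by 1.78 (SE 0.25, adjusted p = 0.0002), and MET, the HGF receptor, by 1.40 (SE 0.11, adjusted p = 2.6e-06). ACP5 rose by 0.66 (adjusted p = 0.0003) and CDK2 by 0.54 (adjusted p = 6.4e-05). Pigment genes MLANA, PMEL, TYR, DCT and TYRP1 were under the filter in all groups, so no change of theirs could be tested. The list as a whole had a median log2 fold change of -0.37, and its genes moved in both directions.

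In YAP-S127A against YAP-S94A,S127A, 2 genes of this list rose (GPNMB and MET) and 4 fell, among them GJB1, NES and the locus that holds MIA, each by less than 2-fold in mean FPKM. Backgrounds over all loci were 6.36% called higher and 4.31% called lower. GJB1 fell by 0.75 (adjusted p = 0.0182) and GPNMB rose by 0.72 (adjusted p = 0.00021). Without YAP-S94A,S127A replicate 3 the counts were 2 and 1. Against Control, YAP-S127A had 2 of the 21 called higher and 5 called lower, with backgrounds of 4.56% and 1.75%. Of these calls 0 were over 2-fold in mean FPKM, and between 3 and 7 genes were called with each library left out in turn. For YAP-S94A,S127A against Control limma called 0 of the 21, with backgrounds of 0.0864% higher and 0.0930% lower. At an unadjusted p under 0.05 there were 0 of the 21, and 4.39% of all loci.

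**Figure D5:**
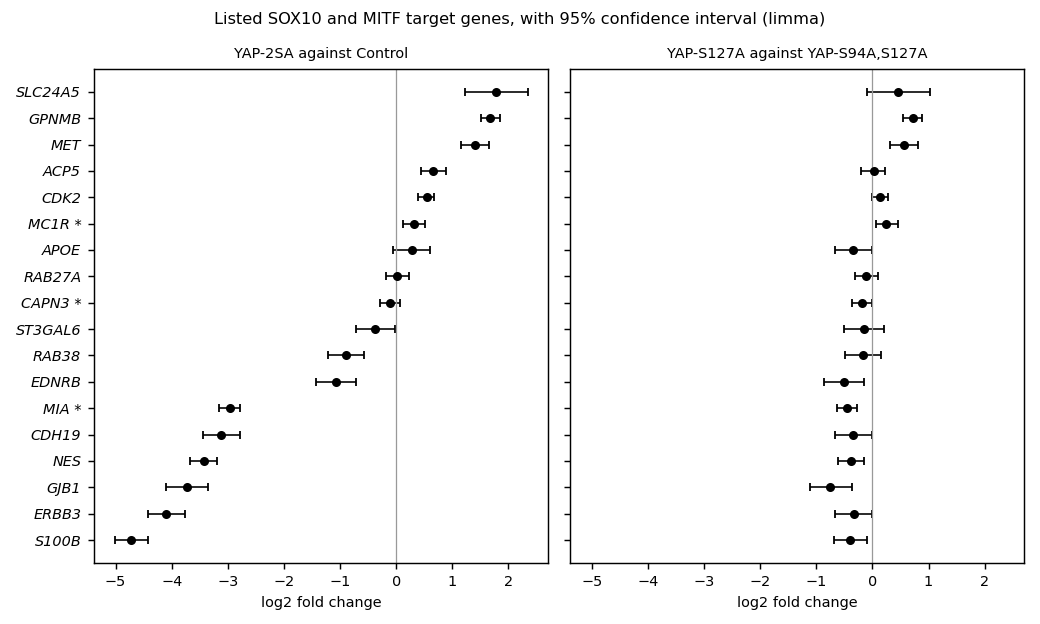
Log2 fold change, with 95% confidence intervals from limma, of 18 of the 21 tested genes known to be activated by SOX10 or MITF, in YAP-2SA against Control (left) and YAP-S127A against YAP-S94A,S127A (right), on the same axis. An asterisk marks a gene read from a locus with other genes, and the changes on the left run from -4.73 (S100B) to 1.78 (SLC24A5), and those on the right from -0.75 (GJB1) to 0.72 (GPNMB).

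The genes whose pattern over the 12 libraries was most like that of SOX10 were LPCAT2, CD96, GAS7, C10orf90 and TNC, each with Pearson r = 0.998 on the log2 scale. TNC, an extracellular matrix protein of the crest, was at a mean of 192 FPKM in Control, 152 in YAP-S127A, 219 in YAP-S94A,S127A and 6.61 in YAP-2SA, and GAS7 went from 34.8 in Control to 0.708 in YAP-2SA. The most opposite were LRRC7 (r = -0.997), ADAMTS5 (-0.996), PTPRR (-0.992), MEGF6 (-0.991) and C9orf84 (-0.990), all at or below 0.262 FPKM in Control. These correlations describe mainly the YAP-2SA libraries against the other 9, which share their group.

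Markers of other cell types were read as a check, 13 in all, of which 5 passed the filter and, in YAP-2SA against Control, 4 were called higher and 1 lower. Backgrounds over all loci were 22.9% called higher and 19.5% called lower. Without CD68, whose locus also holds MPDU1 and was between 74.5 and 116 FPKM, their summed FPKM was between 8.63 and 9.73 in Control, 9.40 and 9.47 in YAP-S94A,S127A, 16.2 and 19.7 in YAP-S127A and 33.7 and 41.3 in YAP-2SA, and between 2 and 6 of the 13 were at 0 in each library. COL1A1, a collagen of fibroblasts, rose from 0.322 FPKM in Control to 33.4 in YAP-2SA (adjusted p = 8.9e-10), LUM, another fibroblast gene, from 1.38 to 2.30 (adjusted p = 0.0139), KRT5, a basal keratin, from 0.0282 to 1.56 (adjusted p = 1.3e-06) and the CD68 locus from 80.2 to 111 (adjusted p = 0.00024). KRT5 reached 1 FPKM only in the 3 YAP-2SA libraries, and COL1A1 only in the 6 libraries of YAP-S127A and YAP-2SA. Both thus passed the filter through the groups where they were high. KRT14, the partner keratin of KRT5, fell from 6.87 to 0.434 (adjusted p = 3.8e-07). DCN, a fibroblast gene under the filter, was at 0.461 FPKM in Control and 0.178 in YAP-2SA, ALB was at 0 in all 12 libraries, and PTPRC was at 0 in 11. The sum without CD68 rose in the same order as SOX9, ETS1 and TFAP2A, mainly through COL1A1, at 7.27 FPKM in YAP-S127A. KRT14 and DCN were lowest in YAP-2SA, whereas KRT5 and LUM were highest there, so the markers did not move together. The part of other cells in these results was not tested.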

How the data were processed

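RNA of 12 A375 libraries, 3 in each of 4 groups assigned from the sample titles, was sequenced from Illumina TruSeq cDNA. The authors aligned the reads to hg19 (GRCh37) with the tools their processing notes name, bcl2fastq 2.15.0, Bowtie2 2.0.0, TopHat2 2.0.4 and Cufflinks 2.0.2, and deposited log2 values of FPKM + 1 per locus. Whether counting used strand, and how multiply aligned reads were shared, is not given in the sources used here. After removal of 3 identical entries, 31585 loci were left. At loci with few values above 0, the ratio to Control replicate 1 was searched for a common step in bins of 0.05 on the log2 scale. The most frequent bin held between 10.3% (YAP-2SA replicate 3) and 45.0% (Control replicate 2) of the loci compared. A step was thus not clear in every library, so reads were not recovered and no count test was used.

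From these values, a single limma model (3.58.1, under R 4.3.3) took in the 12 libraries of the 4 groups, its variances moderated with a trend on intensity, and p-values were adjusted by the Benjamini-Hochberg method over the 15055 loci tested. The code was tested on simulated data. An exact permutation test of 3 against 3 cannot go below p = 0.1 and was not used. Figures were drawn with matplotlib 3.10.9. Gene coordinates are from GENCODE on GRCh37.

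The 10 genes and the other lists were chosen with earlier results of these data known. From each other list, its counts and up to 4 genes with the largest absolute change among those called in YAP-2SA against Control are named, and any gene named beyond that was chosen after its values were seen. Some genes of these lists enter the counts but are not reported here by name. From the correlation with SOX10 the 5 highest and 5 lowest named genes, short RNAs left out, are given. Alternatives were 2 other pseudocounts, other filters, median-ratio scaling, quantile normalization, no intensity trend, a fit of 6 libraries, symbol sums, a 2-fold threshold, the replicate number as a block, and each library left out in turn.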

Additional observations from a re-analysis of the deposited data

How the results depend on the processing

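Under the alternatives, the counts called of the 9 genes other than SOX10 stayed at 8 in YAP-2SA against Control and against YAP-S94A,S127A, and at 0 in YAP-S94A,S127A against Control. They ranged from 7 to 8 in YAP-2SA against YAP-S127A, where ETS1 was under 2-fold, from 2 to 3 in YAP-S127A against Control and from 3 to 4 in YAP-S127A against YAP-S94A,S127A. With each library left out in turn the ranges were 8 to 8, 3 to 3, 0 to 0, 8 to 8, 3 to 4 and 8 to 8, in the order YAP-2SA, YAP-S127A and YAP-S94A,S127A against Control, YAP-2SA against YAP-S127A, YAP-S127A against YAP-S94A,S127A and YAP-2SA against YAP-S94A,S127A. No called gene changed direction, and the calls whose adjusted p no longer passed were those of TFAP2A and MITF with the libraries and settings named in the report. Median-ratio scaling and quantile normalization moved the median of all loci by less than 0.1 on the log2 scale and turned no called gene of any list. Whether the replicate numbers pair the samples was not settled. Deviations of libraries with the same number correlated at -0.149 to 0.163 (median 0.012), above 0.1 in 2 of 18 pairs. For different numbers the range was -0.119 to 0.188 (median -0.014), above 0.1 in 1 of 36 pairs. Pairs of libraries numbered 1 were all positive, between 0.034 and 0.126, and pairs numbered 2 or 3 went in both directions. With a replicate block the counts of the 9 genes other than SOX10 were 8, 3, 0, 8, 4 and 8, in the same order. The depth of the libraries is unknown, so the precision of low values such as SOX9 in Control rests on the spread of 3 libraries alone.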
